A study of Mus musculus with 6 samples.

Results

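The genes described here encode nucleoporins, the proteins of the nuclear pore, and the factors that carry cargo through it. They are a list of 47 genes, matched by Ensembl ID, out of 55416 genes counted. The list was drawn up by name with earlier results of these data known. The list holds 22 nucleoporins, 14 importins, 7 exportins and 4 genes of the Ran cycle. RNA was sequenced from CD3+ T cells purified from spleens of wild-type C57BL/6 mice, in 3 libraries from allograft recipients, which received tissue from a genetically different donor, and 3 from isograft recipients, whose donor was genetically identical. All 6 libraries came from cells kept in culture medium with serum. The labels used here name no grafted organ, donor strain, age or time after grafting. It is also unknown whether each library came from its own mouse, so every p-value is set against a library-to-library spread that may be only technical.

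Nuclear pores are built from rings of scaffold nucleoporins around a channel that is filled by nucleoporins rich in phenylalanine-glycine repeats. Importins bind cargo in the cytoplasm and release it in the nucleus when the small GTPase Ran, in its GTP form, binds them, while exportins bind cargo together with RanGTP and release it outside. The exchange factor on chromatin and the GTPase activating protein in the cytoplasm keep RanGTP high on the nuclear side, and T cells enlarge their nucleus and raise protein and ribosome production when they are activated.

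Library totals ran from 30078504 to 34123777 counts in allograft and from 30066137 to 37821738 in isograft libraries. Levels are CPM, counts per 1000000 counted fragments after scaling by TMM (trimmed mean of M values). The 12 T cell markers summed to 1689 to 1813 CPM in allograft and 1991 to 2061 CPM in isograft libraries. The 12 B cell markers summed to 1661 to 1808 CPM in allograft and 1423 to 1532 CPM in isograft libraries, so their RNA was present in every library. Of the T cell markers 3 rose and 5 fell, and of the B cell markers 4 rose and 5 fell. The 12 myeloid and dendritic cell markers summed to 353.4 to 361.7 CPM in allograft and 307.1 to 315.3 CPM in isograft libraries (2 rose and 3 fell), and the 6 NK cell markers to 37.1 to 39.9 CPM in allograft and 31.8 to 35.2 CPM in isograft libraries. In each of these lists the gene that differed most was left out, after its values were seen, and the sums of the rest then overlapped. For the T cell, B cell, and myeloid and dendritic cell markers this does not mean that little changed, because genes moved in both directions. The log2 fold changes (allograft over isograft) of the 5 T cell markers that fell ran from -1.35 for Cd247 to -0.31 for Cd28. Among them, Cd3d, Cd3e and Cd3g were at -0.78, -0.63 and -0.58. The T cell markers that rose were Cd5, Zap70 and Trac, by 1.38, 1.18 and 0.72. The 4 B cell markers that rose were Fcer2a, Cr2, Pax5 and Ms4a1, by 2.84, 0.87, 0.36 and 0.20. The 5 B cell markers that fell were Fcrla, Cd79b, Cd79a, Blk and Cd22, at -1.35, -0.87, -0.78, -0.55 and -0.40. Without Fcer2a the other 11 B cell markers summed to 1309 to 1418 CPM in allograft and 1370 to 1478 CPM in isograft libraries, and without Zbtb46 the other 11 myeloid and dendritic cell markers to 293.0 to 304.9 and 292.9 to 302.2 CPM in allograft and isograft libraries. Without Cd247 the other 11 T cell markers summed to 1545 to 1663 CPM in allograft and 1636 to 1663 CPM in isograft libraries, and without Nkg7 the other 5 NK cell markers to 31.9 to 36.2 and 30.5 to 33.5 CPM in allograft and isograft libraries. The full sums overlapped between allograft and isograft libraries for plasma cell markers (99.7 to 110.8 and 105.7 to 116.2 CPM), neutrophil markers (7.11 to 10.3 and 10.2 to 12 CPM) and erythroid markers (1.07 to 1.48 and 0.740 to 1.43 CPM). Without Csf3r, however, the other 5 neutrophil markers did not overlap, at 2.13 to 3.43 CPM in allograft and 3.99 to 4.93 CPM in isograft libraries. In such bulk samples, fewer cells of a type and less RNA per cell cannot be told apart, and the part of these other cells in the results below was not tested.

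Most nuclear transport genes were higher in allograft than in isograft T cell libraries. All 47 passed the filter on low counts, and by edgeR's quasi-likelihood test 37 rose, 2 fell and 8 did not pass an adjusted p of 0.05. Among all 14926 genes tested, 28.7% rose, 29.1% fell and 57.8% passed in either direction. Because the list was made with earlier results of these data known, its counts beside these shares are a description, not a test. With total counts in place of TMM, which moved the median of all genes by -0.22, 32 members rose and 6 fell, against 19.9% and 40.8% of all genes. With TMM, among the 9377 tested genes with a mean level inside the members' range, 36.6% rose and 34.0% fell. The members' median log2 fold change (allograft over isograft) was 0.68, against -0.01 for all genes tested. Rises of at least 2-fold were called for 14 members and falls of at least 2-fold for 0, where 10.1% of all genes passed in each direction and 20.1% in either. The allograft and isograft libraries did not overlap for 40 of the 47 members, against 63.3% of all genes.

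The change was uneven between and within classes. All 4 Ran cycle genes rose, with a median of 1.61. Of the importins 11 of 14 rose and 0 fell (median 0.84), of the exportins 5 of 7 rose and 1 fell (median 0.80), and of the nucleoporins 17 of 22 rose and 1 fell (median 0.58). The median of importins and exportins together exceeded that of the nucleoporins by 0.22, a description without a test. It was 0.17 without allograft replicate 2 and 0.26 without allograft replicate 1. Of the 2 members that fell, Tpr had the highest level of all members in both groups, 138.9 ± 4.25 CPM per kilobase of exon in allograft and 159.9 ± 4.62 in isograft libraries (SD, n = 3 each). Xpo1, the other, stood at 47.9 ± 3.47 CPM per kilobase in allograft and 54.3 ± 0.630 in isograft libraries. In isograft libraries it did not differ beyond the spread from Kpnb1, at 53.8 ± 3.62, whereas Kpnb1 stood at 113.4 ± 0.648 in allograft libraries, close to Ran at 112.5 ± 4.90.

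**Figure D1:**
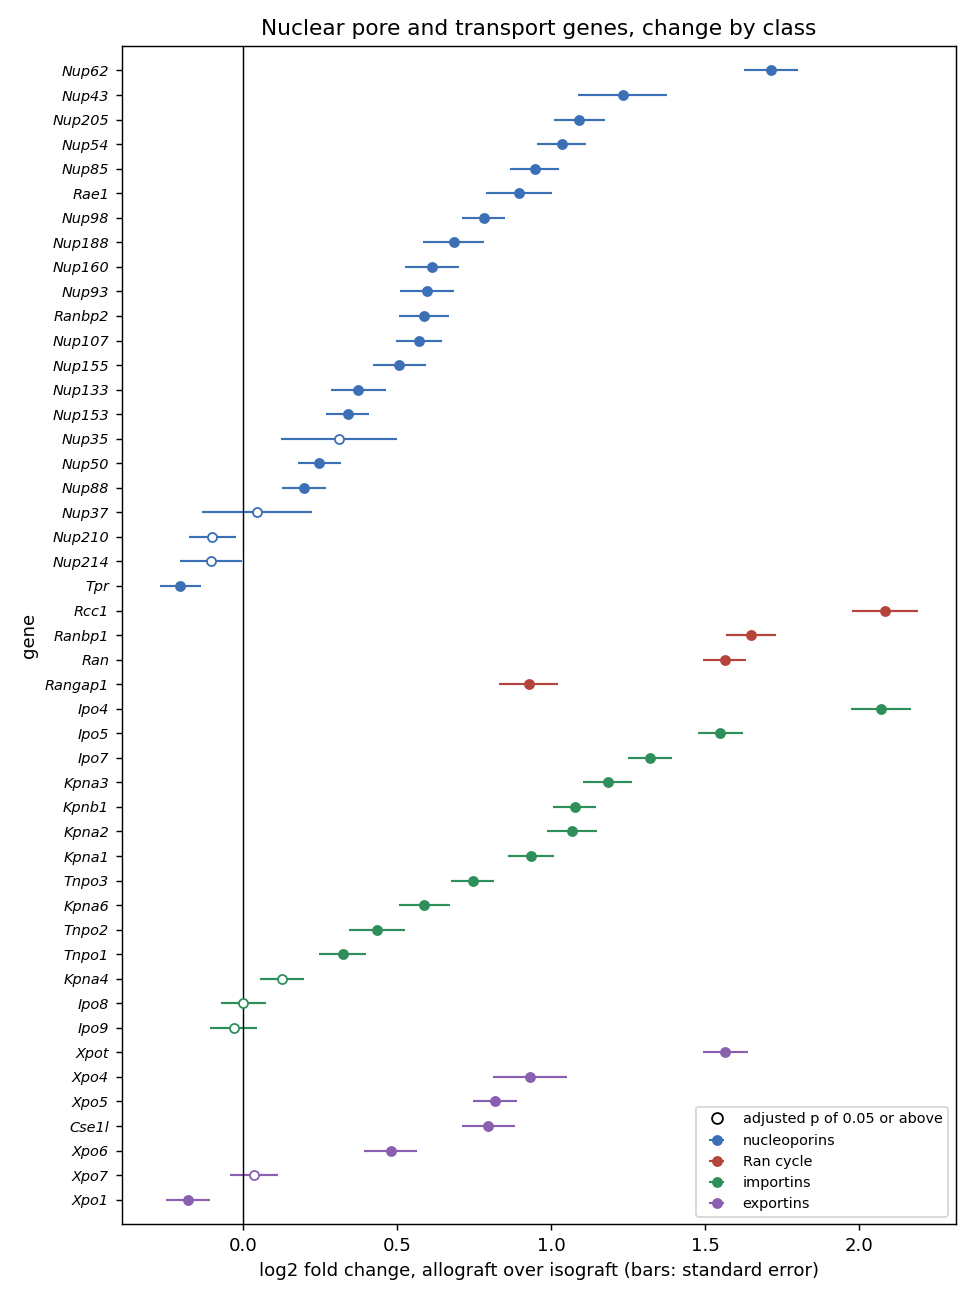
Log2 fold change of each member, allograft over isograft, with its standard error (n = 3 libraries per group), grouped by class and sorted within it. Open circles mark the 8 members that did not pass an adjusted p of 0.05. Rcc1 and Ipo4 lie farthest right, above 2, and Tpr and Xpo1 are the filled points left of 0.

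The Ran cycle had the largest median fold change of the 4 classes. Ran itself, the GTPase (chromosome 5, 129097133 to 129101387, GRCm39, as are all gene positions here), stood at 298.2, 310.4 and 284.5 CPM in allograft libraries, against 102.7, 101.1 and 98.1 CPM in isograft libraries. The groups were far apart for Ran, a log2 fold change of 1.56 ± 0.07 (SE, adjusted p = 3.8e-13). Rcc1, the exchange factor that loads Ran with GTP on chromatin (chromosome 4, 132059230 to 132080916), had 53.9, 51.6 and 45.6 CPM in allograft libraries, against 10.2, 12.8 and 12.7 CPM in isograft libraries. Its rise of 2.08 ± 0.11 (adjusted p = 2.6e-12) was the largest of all 47 members in these libraries. Ranbp1, which helps to dissociate RanGTP from transport receptors (chromosome 16, 18057648 to 18066596), had 131.0, 128.5 and 121.3 CPM in allograft libraries, against 38.9, 37.6 and 45 CPM in isograft libraries (1.65 ± 0.08, adjusted p = 1.7e-12), and exons of Gm49776, listed at 0, overlap 281 of its exon bases. Rangap1, the GTPase activating protein (chromosome 15, 81588449 to 81629731), had 461.4, 434.4 and 408.4 CPM in allograft libraries, against 189.4, 236.4 and 259.9 CPM in isograft libraries. It rose the least of the class (0.93 ± 0.10, adjusted p = 3.3e-07), with isograft replicate 1 the lowest.

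The members' proportions within the Ran cycle also differed. Expressed as a share of the summed level per kilobase, which no library scaling enters, Rcc1 made up 4.49% ± 0.190 in allograft and 2.74% ± 0.198 in isograft libraries (SD, n = 3 each). Rangap1 made up 30.7% ± 0.809 in allograft and 41.6% ± 3.58 in isograft libraries. For both, the libraries of the groups did not overlap.

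**Figure D2:**
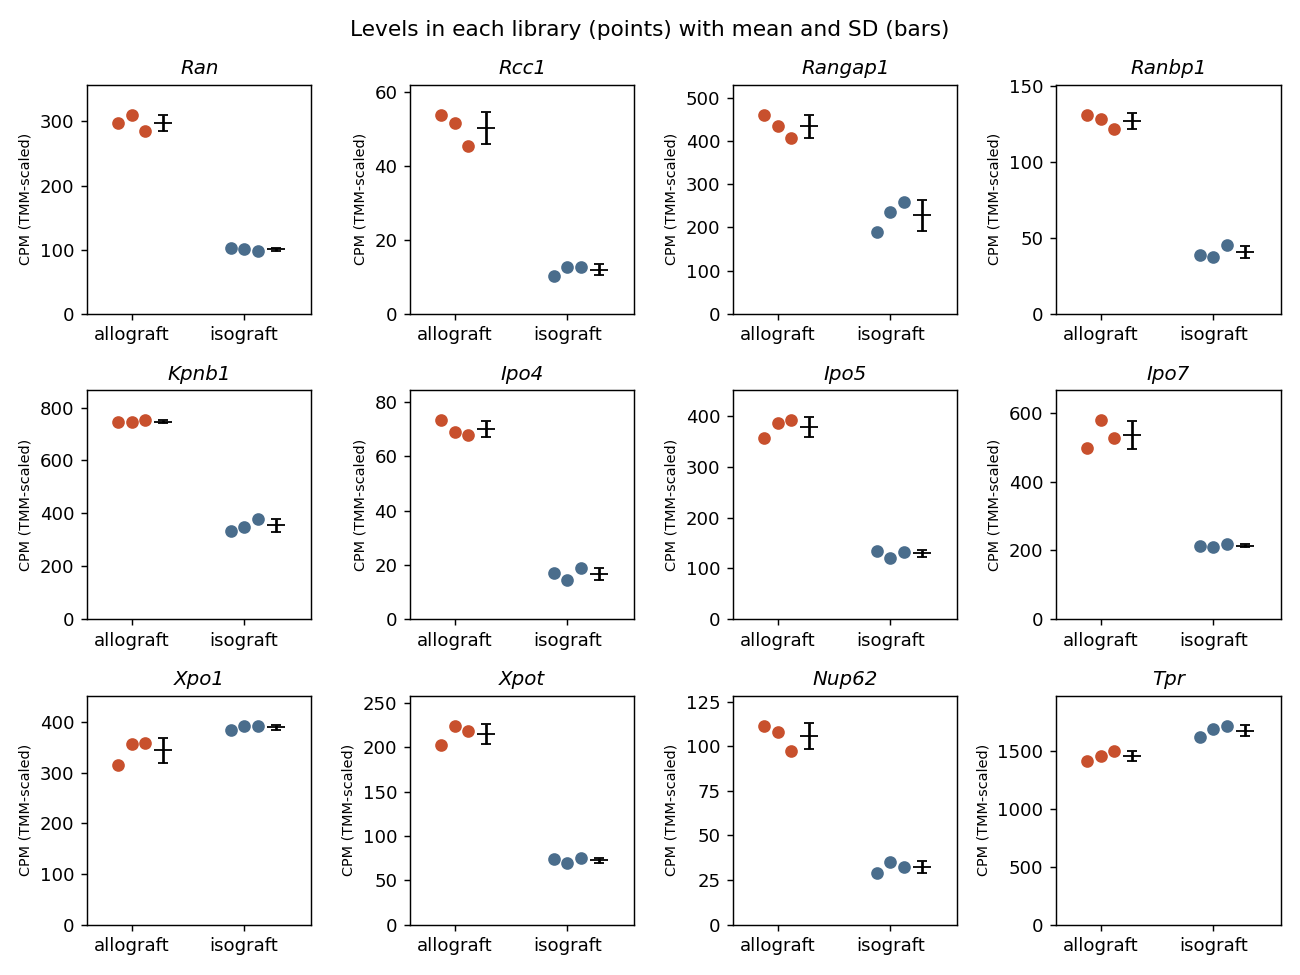
TMM-scaled CPM of 12 members in each library (points), with mean and SD (bars, n = 3 per group); vertical axes start at 0. Xpo1 and Tpr are lower in allograft libraries, and the other 10 are higher with no overlap.

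The promoters of members that rose at least 2-fold and hold an E-box, the sequence CACGTG, are shown. This motif was chosen after the members' values were seen. The share of genes with it was larger among members than among all genes. That does not single out the E-box, because the same held for the NRF1 core (18.4% of members, 5.99% of tested genes). The E-box is a palindrome bound by basic helix-loop-helix factors such as MYC, MAX and USF. RefSeq promoter windows of 300 bases (250 before and 50 after the start site, GRCm38.p6) were matched by symbol for 38 of the 47 members. CACGTG was present in 9 of these 38 genes (23.7%), in 11.7% of 10039 tested genes with a window, in 8.09% of all 27025 genes and in 7.15% of all 32851 windows. The 5 windows lie at chr5:129019906-129020205 (plus strand) for Ran, chr14:55635635-55635934 (minus strand) for Ipo4, chr7:110018065-110018364 (plus strand) for Ipo7, chr10:121626283-121626582 (minus strand) for Xpot and chr5:92435150-92435449 (minus strand) for Nup54. Each is written 5′ to 3′ on its gene's strand, with the E-box in capitals.
Ran: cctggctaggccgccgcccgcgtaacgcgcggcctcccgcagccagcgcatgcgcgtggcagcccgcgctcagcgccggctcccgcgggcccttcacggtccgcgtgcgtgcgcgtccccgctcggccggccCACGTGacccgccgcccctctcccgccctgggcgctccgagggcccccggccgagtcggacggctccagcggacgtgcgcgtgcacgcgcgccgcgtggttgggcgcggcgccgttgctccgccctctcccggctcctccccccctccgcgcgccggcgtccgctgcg
Ipo4: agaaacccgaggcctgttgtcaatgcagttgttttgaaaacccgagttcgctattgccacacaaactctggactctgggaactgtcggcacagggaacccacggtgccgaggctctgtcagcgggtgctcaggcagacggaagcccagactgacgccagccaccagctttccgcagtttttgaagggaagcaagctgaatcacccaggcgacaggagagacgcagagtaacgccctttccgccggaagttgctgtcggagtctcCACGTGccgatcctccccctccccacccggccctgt
Ipo7: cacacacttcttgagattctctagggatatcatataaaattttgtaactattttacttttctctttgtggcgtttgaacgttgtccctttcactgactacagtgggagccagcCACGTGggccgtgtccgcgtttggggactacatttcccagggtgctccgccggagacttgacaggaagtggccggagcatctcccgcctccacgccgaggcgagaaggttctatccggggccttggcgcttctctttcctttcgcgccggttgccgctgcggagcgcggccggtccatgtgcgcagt
Xpot: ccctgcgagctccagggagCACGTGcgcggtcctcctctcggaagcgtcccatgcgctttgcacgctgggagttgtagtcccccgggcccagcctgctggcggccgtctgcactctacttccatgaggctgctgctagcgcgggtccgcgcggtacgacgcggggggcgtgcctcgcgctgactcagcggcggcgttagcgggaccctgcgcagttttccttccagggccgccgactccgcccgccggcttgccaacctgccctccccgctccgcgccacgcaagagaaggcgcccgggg
Nup54: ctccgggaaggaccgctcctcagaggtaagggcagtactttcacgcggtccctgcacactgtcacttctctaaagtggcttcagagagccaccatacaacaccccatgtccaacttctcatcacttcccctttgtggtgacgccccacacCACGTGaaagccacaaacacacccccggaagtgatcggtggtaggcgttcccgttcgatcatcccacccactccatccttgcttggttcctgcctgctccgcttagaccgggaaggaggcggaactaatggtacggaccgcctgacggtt

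The E-box starts 118 bases before the start site in Ran, 137 in Ipo7, 231 in Xpot and 100 in Nup54, and 14 bases after it in Ipo4. The other 4 members with an E-box were Nup93, Nup188, Ranbp2 and Tnpo2. All 9 members with CACGTG rose, with a median log2 fold change of 1.03, while of the 29 without it 21 rose, 2 fell and 6 were not called, with a median of 0.51. Over all tested genes with a window, the median was 0.06 for the 1170 with CACGTG, of which 431 rose and 357 fell, and -0.05 for the 8869 without it, of which 2633 rose and 2883 fell. Rcc1, Ipo5 and Nup62, which rose strongly, had none in their windows, and a match is a description, not a binding site. An NRF1 core, GCGCATGC or its reverse complement GCATGCGC, was present in 7 members (18.4%), namely Nup107, Nup62, Nup50, Ran, Rcc1, Ranbp1 and Xpo5, against 5.99% of tested genes. A CCAAT box, CCAAT or ATTGG, was present in 19 members (50%) against 42.7%. The E2F sequence TTTCGCGC was present in 1 member, Ipo7 (2.63% against 0.727%), and TTTGGCGC in 0 (against 1.11%). Both strands were searched for each motif, and none of these motifs contains another.

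Importins of the beta family, which bind cargo and pass the pore, ranged from a fold of about 1 to more than 4. Ipo4, an importer of histones and ribosomal proteins (chromosome 14, 55862857 to 55873414), had 73.2, 68.8 and 67.7 CPM in allograft libraries, against 17.1, 14.3 and 18.7 CPM in isograft libraries. That is a log2 fold change of 2.07 ± 0.10 (adjusted p = 8.0e-13), with no overlap between the groups. Exons of Gm49378, a gene listed at 0, overlap 2583 exon bases of Ipo4, and fragments there are by the counting tool's default given to neither gene, so the level of Ipo4 is uncertain. Ipo5, which also carries ribosomal proteins and histones (chromosome 14, 121148636 to 121185411), had 357.0, 387.0 and 391.8 CPM in allograft libraries, against 134.4, 121.0 and 132.7 CPM in isograft libraries (1.55 ± 0.07, adjusted p = 8.0e-13). Ipo7, another receptor for ribosomal proteins and, with Kpnb1, for linker histone (chromosome 7, 109617481 to 109655816), had 499.1, 578.6 and 526.5 CPM in allograft libraries, against 211.5, 210.8 and 219.8 CPM in isograft libraries (1.32 ± 0.07, adjusted p = 7.9e-12). In all 3 of these genes every allograft library lay above every isograft library.

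Kpnb1, importin beta 1, is the common carrier of importin alpha and the most abundant importin in both groups (chromosome 11, 97050540 to 97078707). It had 744.5, 744.8 and 752.1 CPM in allograft libraries, against 333.9, 348.6 and 380.5 CPM in isograft libraries, a rise of 1.08 ± 0.07 (adjusted p = 1.1e-10). Its library values are given here although it is only the fifth largest rise among importins, a choice made after its values were seen. The transportins had smaller fold changes. Tnpo3, the receptor of SR splicing proteins, of which 411 exon bases overlap Irf5 on the opposite strand, rose by 0.75 ± 0.07, and the hnRNP receptors Tnpo2 and Tnpo1 by 0.44 ± 0.09 and 0.32 ± 0.08. The call of Tnpo1 was lost with total counts in place of TMM (0.10, adjusted p = 0.27).

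The other beta-family members did not pass. Ipo8, a close relative of Ipo7, stood at 63.1 ± 1.6 CPM in allograft and 63.1 ± 1.32 CPM in isograft libraries (SD, n = 3 each), a log2 fold change of 0.00 ± 0.07 (adjusted p = 0.99). Ipo9, a histone importer, averaged 79.3 ± 5.57 CPM in allograft and 81.0 ± 3.85 CPM in isograft libraries (-0.03 ± 0.08, adjusted p = 0.76). With total counts, which moved the median of all genes by -0.22, both were called lower (-0.22 and -0.25, adjusted p = 0.014 and 0.0086), close to that shift itself. Their shares of the beta-family level per kilobase were smaller in allograft libraries. Ipo9 made up 3.47% ± 0.165 in allograft and 7.65% ± 0.552 in isograft libraries, and Ipo8 made up 1.44% ± 0.0402 in allograft and 3.10% ± 0.0636 in isograft libraries. Kpnb1 held 40.9% ± 1.08 in allograft and 41.7% ± 1.42 in isograft libraries, overlapping, while Ipo5 held 22.8% ± 0.659 in allograft and 16.7% ± 0.905 in isograft libraries.

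Importin alpha proteins are the adaptors that recognise classical nuclear localization signals and hand cargo to Kpnb1. Of the 5 genes 4 rose. Kpna3 (chromosome 14, 61602660 to 61677323) had 106.9, 121.4 and 116.9 CPM in allograft libraries, against 52.4, 46.6 and 53.0 CPM in isograft libraries (1.18 ± 0.08, adjusted p = 1.5e-10). Kpna2 rose by 1.07 ± 0.08, Kpna1 by 0.94 ± 0.08 and Kpna6 by 0.59 ± 0.08. Kpna4, a close paralog of Kpna3, averaged 118.9 ± 2.36 CPM in allograft and 108.9 ± 6.13 CPM in isograft libraries (0.13 ± 0.07, adjusted p = 0.13). It passed after removal of a gene length trend (0.20, adjusted p = 0.018) and turned to -0.09 with total counts. As a share of the importin alpha level per kilobase, Kpna4 made up 13.8% ± 0.532 in allograft and 22.9% ± 1.5 in isograft libraries, and Kpna3 made up 27.8% ± 1.30 in allograft and 22.2% ± 1.44 in isograft libraries.

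The level of Kpna2 is uncertain, because 90.4% of the 75-base stretches of its longest transcript occur in other genes, processed copies such as Kpna2-ps among them, and multi-mapped reads are left out by the counting tool's default. Kpna2 is also known as a gene of dividing cells. Of the 12 proliferation genes listed, 0 rose and 5 fell, with summed levels of 420.6 to 495.1 CPM in allograft and 497.2 to 514.2 CPM in isograft libraries. Without Top2a the sums of the other 11 overlapped, at 270.4 to 325.6 and 317.9 to 334.2 CPM in allograft and isograft libraries. Mki67 was not called (-0.08 ± 0.08, adjusted p = 0.39). The part of proliferation in the members' values was not tested.

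**Figure D3:**
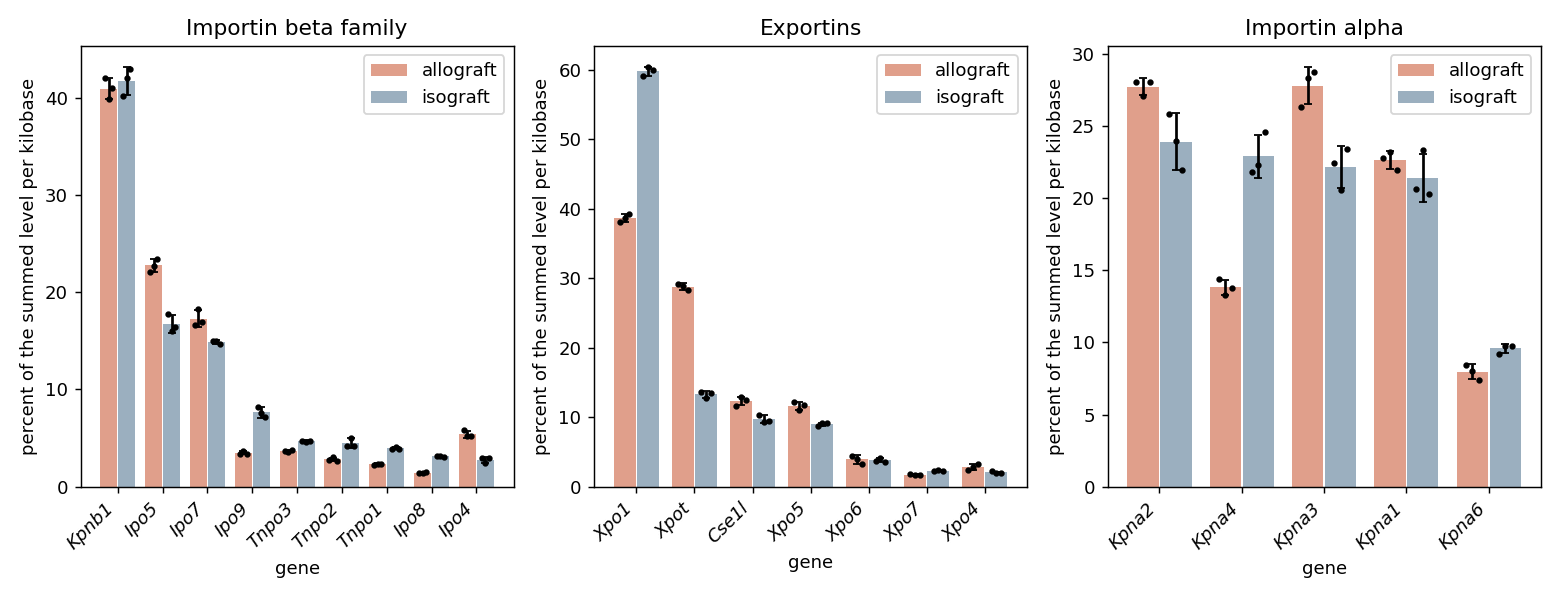
Share of each gene in the summed level per kilobase of its family, in percent, for the importin beta family, exportins and importin alpha. Bars are means and error bars SD over 3 libraries, with each library as a point; Xpo1 makes up 38.7% of the exportin level in allograft libraries, against 59.8% in isograft libraries.

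Most exportins rose, and Xpo1 was slightly lower, a call lost under several alternatives. Xpo1, also called CRM1, exports proteins with leucine-rich signals and ribosomal subunits (chromosome 11, 23206041 to 23248249). It had 315.5, 357.6 and 359.7 CPM in allograft libraries, against 384.4, 391.5 and 392.9 CPM in isograft libraries. The groups did not overlap, but the difference was small, -0.18 ± 0.07 (adjusted p = 0.037), and allograft replicate 1 was the lowest. The call was lost without allograft replicate 1 (-0.13, adjusted p = 0.13), allograft replicate 2 (adjusted p = 0.052), isograft replicate 2 (0.091) or isograft replicate 3 (0.084), and with removal of the gene length trend (-0.12, adjusted p = 0.14).

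Xpot, the exporter of tRNA (chromosome 10, 121423285 to 121462237), had 203.0, 224.3 and 218.2 CPM in allograft libraries, against 74.2, 69.3 and 74.6 CPM in isograft libraries. Its rise of 1.57 ± 0.07 (adjusted p = 6.8e-13) was the largest among exportins. Xpo5, the exporter of microRNA precursors (chromosome 17, 46513708 to 46554524), had 95.9, 97.4 and 103.5 CPM in allograft libraries, against 54.4, 56.5 and 57.4 CPM in isograft libraries (0.82 ± 0.07, adjusted p = 8.2e-09). Cse1l, which returns importin alpha to the cytoplasm (chromosome 2, 166747960 to 166788309), had 70.8, 87.6 and 83.8 CPM in allograft libraries, against 49.4, 44.5 and 45.6 CPM in isograft libraries (0.80 ± 0.09, adjusted p = 1.4e-07). All 3 separated the groups without overlap.

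Xpo4, an exporter of the translation factor eIF5A (chromosome 14, 57814978 to 57902887), had 30.3, 39.3 and 44.8 CPM in allograft libraries, against 21.2, 18.8 and 19.9 CPM in isograft libraries (0.93 ± 0.12, adjusted p = 3.1e-06). Its allograft values spread more than those of the other exportins in proportion to their mean. The actin exporter Xpo6 rose by 0.48 ± 0.09, and Xpo7 averaged 40.5 ± 0.622 CPM in allograft and 39.5 ± 1.12 CPM in isograft libraries (0.04 ± 0.08, adjusted p = 0.72). Within the exportin level per kilobase, Xpo1 made up 38.7% ± 0.527 in allograft and 59.8% ± 0.632 in isograft libraries, and Xpot made up 28.8% ± 0.456 in allograft and 13.3% ± 0.492 in isograft libraries.

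Ratios between classes also do not depend on library scaling. The summed importin level per kilobase was 0.835 ± 0.0162 of the nucleoporin level in allograft and 0.508 ± 0.0115 in isograft libraries (SD, n = 3 each). The exportin level was 0.277 ± 0.0128 of the nucleoporin level in allograft and 0.254 ± 0.00700 in isograft libraries, a small difference whose libraries came as close as 0.262 and 0.261. The Ran cycle level was 0.651 ± 0.0385 of the nucleoporin level in allograft and 0.314 ± 0.0143 in isograft libraries. Xpo1 stood at 0.423 ± 0.0294 of the Kpnb1 level in allograft and at 1.01 ± 0.0571 in isograft libraries. With 3 libraries against 3 an exact permutation test cannot give a two-sided p below 0.1, so these ratios are described without a test. The sums are dominated by the most abundant genes, Tpr among nucleoporins, at 138.9 CPM per kilobase in allograft and 159.9 in isograft libraries. Tpr fell while 17 of the 22 nucleoporins rose, so the ratios to nucleoporins depend in large part on it. The small difference in the exportin ratio has this direction only with Tpr in the sum.

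Within the pore, the central channel had the largest median fold change, 1.03. Nup62, a repeat-rich channel protein (chromosome 7, 44465512 to 44480236), had 111.4, 108.0 and 97.4 CPM in allograft libraries, against 28.9, 35.3 and 32.3 CPM in isograft libraries. This rise of 1.71 ± 0.09 (adjusted p = 2.4e-12) was the largest among nucleoporins. Nup54, its partner in the channel (chromosome 5, 92563399 to 92583078), had 69.9, 71.9 and 78.8 CPM in allograft libraries, against 34.1, 36.0 and 37.6 CPM in isograft libraries (1.03 ± 0.08, adjusted p = 1.1e-09). Nup98, whose transcript also encodes the scaffold protein Nup96, rose by 0.78 ± 0.07. All 3 channel genes rose, and for each the groups did not overlap.

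In the Y complex, the outer ring scaffold, 5 of 6 genes rose. Nup43 (chromosome 10, 7543267 to 7554645) was low but separate, at 10.5, 9.45 and 9.74 CPM in allograft libraries, against 3.84, 4.46 and 4.33 CPM in isograft libraries (1.23 ± 0.14, adjusted p = 4.1e-07). Nup85 rose by 0.95 ± 0.08, Nup160 by 0.61 ± 0.09, Nup107 by 0.57 ± 0.07 and Nup133 by 0.37 ± 0.09. Nup133 was not called with total counts (0.15, adjusted p = 0.15). Nup37 averaged 5.04 ± 0.221 CPM in allograft and 4.89 ± 1.05 CPM in isograft libraries (0.05 ± 0.18, adjusted p = 0.85), the least precise of the complex.

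The inner ring held 4 rises in 5 genes. Nup205, a large scaffold protein (chromosome 6, 35154356 to 35224531), had 72.1, 86.4 and 79.8 CPM in allograft libraries, against 39.1, 37.3 and 35.5 CPM in isograft libraries (1.09 ± 0.08, adjusted p = 9.3e-10). Its paralog Nup188 rose by 0.68 ± 0.10, Nup93, which links the ring together, by 0.60 ± 0.09, and Nup155 by 0.51 ± 0.09. Nup35 averaged 12.1 ± 2.34 CPM in allograft and 9.80 ± 2.76 CPM in isograft libraries (0.31 ± 0.19, adjusted p = 0.18), and passed without isograft replicate 1 (0.55, adjusted p = 0.0085). Of the 75-base stretches of its longest transcript, 77.7% occur in the gene Gm4353, so its level is uncertain.

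On the cytoplasmic face, Rae1, an mRNA export factor that binds Nup98, rose by 0.90 ± 0.11, and Ranbp2, the filament protein with Ran-binding domains and SUMO ligase activity, by 0.59 ± 0.08. Nup88 differed by 0.20 ± 0.07 (adjusted p = 0.021), a call lost in 6 of the 15 alternatives, where total counts gave -0.02. Those alternatives include leaving out allograft replicate 2 (adjusted p = 0.087), allograft replicate 3 (0.058), isograft replicate 2 (0.058) or isograft replicate 3 (0.068). Nup214, its partner, averaged 51.5 ± 4.93 CPM in allograft and 55.4 ± 7.71 CPM in isograft libraries (-0.10 ± 0.10, adjusted p = 0.39). It was called lower with total counts (-0.32, adjusted p = 0.0048), and exons of Fam78a on the opposite strand overlap 177 of its bases.

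The nuclear basket had a small median fold change, 0.25, with members on both sides of 0. Tpr, the long coiled-coil protein of the basket (chromosome 1, 150268589 to 150325686), had 1413, 1458 and 1502 CPM in allograft libraries, against 1626, 1689 and 1721 CPM in isograft libraries. It fell by 0.20 on the log2 scale (SE 0.07, adjusted p = 0.014), with no overlap. After removal of the gene length trend it did not pass (-0.13, adjusted p = 0.076). Nup153 rose by 0.34 ± 0.07 and Nup50 by 0.25 ± 0.07, and neither passed with total counts (adjusted p = 0.16 and 0.76). Nup210, a membrane nucleoporin described in muscle and T cells, averaged 67.2 ± 0.568 CPM in allograft and 72.0 ± 6.01 CPM in isograft libraries (-0.10 ± 0.08, adjusted p = 0.28), and was called lower with total counts (-0.32, adjusted p = 0.0010).

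**Figure D4:**
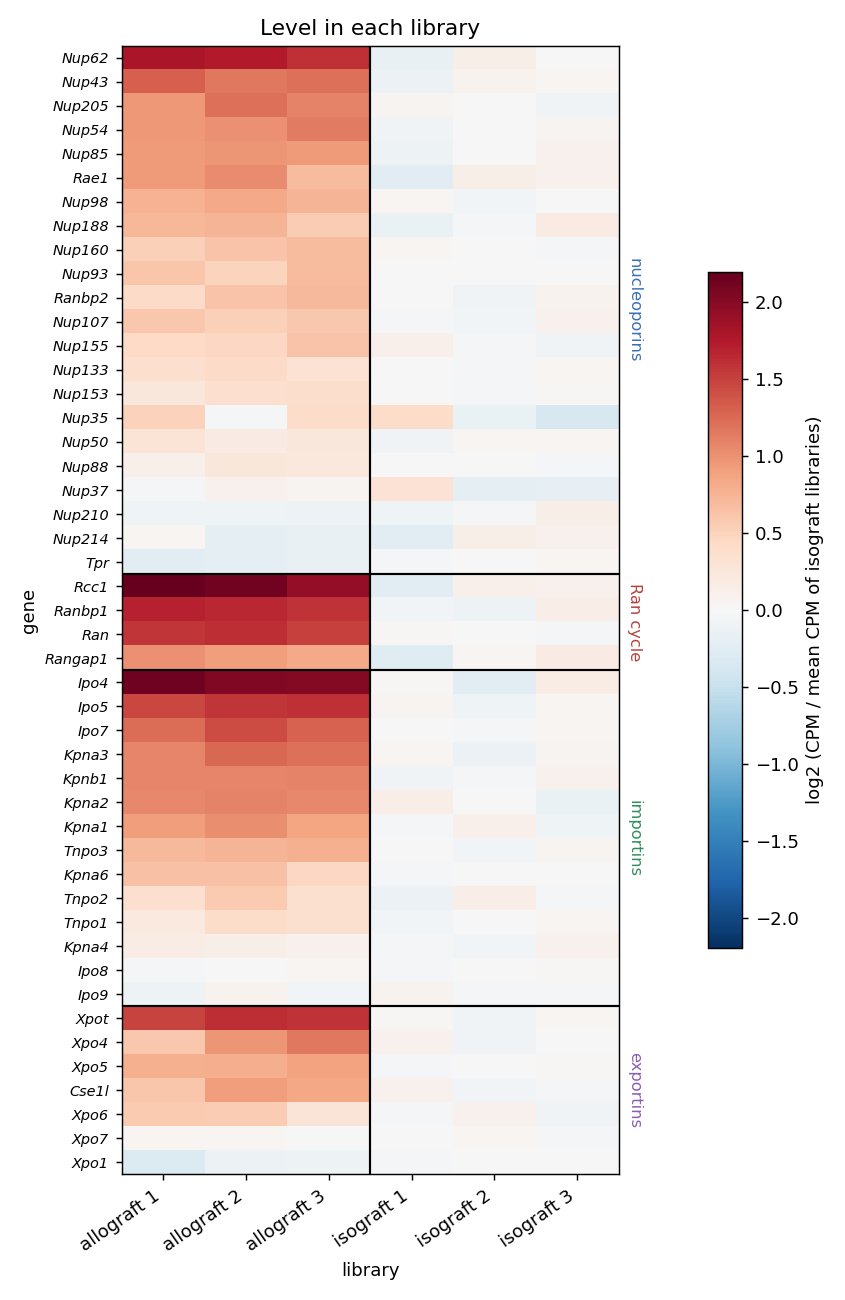
Log2 ratio of each member's CPM in each library to its mean in isograft libraries, by class and in the order of the fold change. The 3 allograft libraries show the same pattern, darkest red (highest) for Rcc1, Ipo4 and Nup62. Isograft libraries lie around 0 by construction, and the bluer cells among them mark a library below its group's mean, such as Rangap1 and Rae1 in isograft replicate 1 and Nup35 in isograft replicate 3.

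Other lists of pathway genes had smaller median fold changes than the 47 members together (0.68), by a small margin for the import, export and Ran factors. All these lists were made with earlier results of these data known, so the order is a description only. Of 11 other nucleoporins 10 passed the filter, 6 rose and 0 fell, with a median of 0.51. Ahctf1, also called ELYS, which starts pore assembly on chromatin, rose by 0.94 ± 0.07 (adjusted p = 1.1e-09), Seh1l by 0.78 ± 0.08 and Sec13 by 0.65 ± 0.09. Nup58, the third protein of the channel with Nup62 and Nup54, was left out by the filter with 6 counts over all 6 libraries, and exons of Gm49336, counted 4760 times, overlap 1756 of its exon bases. Of 8 further import, export and Ran factors 5 passed the filter and all 5 rose, with a median of 0.65. Nutf2, the carrier that returns Ran to the nucleus, had 7.29 ± 0.244 CPM in allograft and 1.89 ± 0.90 CPM in isograft libraries (1.94 ± 0.26). Snupn rose by 0.71 ± 0.09 and Ranbp3 by 0.44 ± 0.07.

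Among 16 mRNA export factors 13 rose and 1 fell, with a median of 0.39. Alyref rose by 0.97 ± 0.08 and Thoc1, of which 2169 exon bases overlap Usp14 on the opposite strand, by 0.83 ± 0.07. Mcm3ap, a scaffold for mRNA export at the nuclear basket, fell by 0.50 on the log2 scale (SE 0.07). With total counts 8 of the 16 rose.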

How the data were processed

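The deposited tables, 1 per library, give raw counts per Ensembl gene as whole numbers. Read pairs were counted as fragments on exons by featureCounts 1.6.0 after HISAT alignment, per the file headers, with the Ensembl 104 annotation of GRCm39. GRCm38 and mm10 are the builds named by the submitters' processing notes, and gene coordinates are given as in the files. No strand or multi-mapping option is recorded, so antisense reads are not told apart and, by the tool's default, multi-mapped and ambiguous fragments are left out.

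From these counts, genes were kept by filterByExpr (14926 of 55416, with 99.92% of counts), scaled by TMM and tested with edgeR 4.0.16 (R 4.3.3), quasi-likelihood with robust estimation, Benjamini-Hochberg adjustment over all genes tested and a threshold of 0.05. SE is the log2 fold change over the square root of F. Alternatives changed the scaling, filter, tool, replicate block, gene length trend and libraries used, with limma 3.58.1, DESeq2 1.42.0 and mgcv 1.9.3. Members, lists and classes were chosen with earlier results of these data known. Library values are printed for the 4 largest rises and falls past the threshold in nucleoporins, importins and exportins, for the Ran cycle and for Kpnb1. The text names up to 3 genes of each other pathway list by p, and Nup58 besides. Marker and proliferation genes were named after their values were seen, not by p. Motifs were chosen after values were seen. Shared sequence was searched in GENCODE transcripts and exon overlaps in the deposited annotation columns. Symbols were matched for 52083 genes. Chi-square per degree of freedom within groups ran from 10.2 to 21.7, above sampling noise. The procedure was run on simulated data in which a small part of the genes changed, in both directions. Such data cannot test the scaling for libraries in which 57.8% of genes were called.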

Additional observations from a re-analysis of the deposited data

How the results depend on the processing

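Each result was recomputed under 15 alternatives. Of the members' results, 669 kept their direction and call, 16 lost the call, 5 gained it and 14 turned direction. With DESeq2, limma-voom, RLE scaling or immunoglobulin, haemoglobin and mitochondrial genes left out, all 47 calls were the same. Total counts gave 6 members that fell, 3 of them nucleoporins and 2 importins, 1 other nucleoporin that fell and 8 mRNA export factors that rose. Its medians were 0.4631 for all members, 0.3593 for nucleoporins, 1.385 for the Ran cycle, 0.6195 for importins and 0.5745 for exportins. It turned Nup37 to -0.1781, Nup88 to -0.02293, Kpna4 to -0.09443, Ipo8 to -0.2196 and Xpo7 to -0.1855, within reach of its shift of all genes by -0.22. Removal of the gene length trend left 0 members that fell, 0 nucleoporins and 0 exportins among them, with medians of 0.7365 for all members and 0.9201 for importins and Ipo9 at 0.03668. Without the low-count filter the medians were 0.6629 for all members and 0.8195 for importins, and Ipo8 was at -0.0196. With at least 5 CPM in 3 libraries the importin median was 0.8162 and Ipo8 was at -0.02304. In the replicate block fit 1 member fell and 0 exportins fell, since Xpo1 missed the threshold (-0.18, adjusted p = 0.058), and no other member's call changed. The replicate numbers do not pair the libraries (correlations of same-numbered deviations -0.0628, 0.00293 and -0.0338). Leaving out each replicate in turn gave 1 to 2 members that fell and 0 to 1 exportins that fell. It gave medians of 0.6296 to 0.7772 for all members and 0.5272 to 0.5894 for nucleoporins. The importin and exportin median exceeded the nucleoporin median by 0.1655 to 0.2632. Nup37 ranged from -0.04898 to 0.2305, Ipo8 from -0.02803 to 0.01458 and Ipo9 from -0.08762 to 0.005305. Apart from what an alternative's own construction shows, the cause of these changes was not tested. With 3 libraries a group, changes as small as that of Xpo1 lie near what the replicate spread lets the test call.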
